A study of Mus musculus with 32 samples.

Results

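Mab21l1 and Mab21l2 are a pair of closely related mouse genes that act in the early eye. They were taken as the 2 rows of the deposited expression table that carry these symbols, out of 55492 gene rows, and are followed here over all 32 libraries. Both genes were chosen from earlier results on the same libraries, so their levels and differences are a description and carry no test. The study followed mouse stem cells as they formed retinal organoids, which are floating aggregates that turn into tissue of the early eye, and sequenced polyadenylated RNA at days 0, 2, 4 and 6 in 4 lines with 2 libraries per line and day. The WT line carries a GFP reporter in the Rx gene (Rx:GFP). The KO line lacks Mettl3, the catalytic subunit of the enzyme that adds N6-methyladenosine to RNA. The other two series come from Mettl3 KO cells that overexpress METTL3 joined to GRBD, grown either without Dex, when the design text places the fusion protein in the cytosol, or with Dex (10 µM), when it places it in the nucleus. All lines received AGN (0.1 µM) at days 2, 4 and 6, and day 0 is the stem cell state. The label of the Dex series names Dex at day 0 as well, while the treatment text lists it for the later days. The fusion cells with and without Dex are counted as 2 of the 4 lines, although they differ by treatment. The labels do not say how many clones each line stands for. The duplicates passed through separate library preparations and sequencing rounds, and separate cultures are not stated, so every spread and p-value covers the variation between these libraries, which may be technical.

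MAB21L1 and MAB21L2 are vertebrate relatives of the worm protein MAB-21 and share the fold of the nucleotidyltransferase family that includes cGAS, although their own biochemical activity is not settled. In the mouse embryo both are made in the optic vesicle and retina, and Mab21l2 is also strong in the dorsal midbrain. Mice without Mab21l2 fail to form a proper retina and lens, and mice without Mab21l1 have defective lenses. MAB21L2 was found to bind SMAD1 and to oppose BMP signalling in frog embryos.

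Both genes lie on chromosome 3 and have no intron in the coding part. Mab21l1 (ENSMUSG00000056947) occupies chr3:55782510-55785001 on the plus strand of GRCm38, with its coding sequence at 55782994 to 55784073, and sits inside Nbea, which runs on the minus strand. The protein-coding transcript of Mab21l2 (ENSMUSG00000057777) occupies chr3:86545581-86548283 on the minus strand, with its coding sequence at 86546612 to 86547691, and sits inside Lrba, which runs on the plus strand. The genes are 30.8 Mb apart. Annotated exons of the host genes cover 39.4% of the Mab21l1 transcript and 40.6% of the Mab21l2 transcript on the opposite strand, and whether the counting used strand is not given in the sources used here, so reads from a host exon and from the nested gene cannot be told apart in those stretches.

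The value of each gene depends on telling their reads apart, and the coding sequences show how far they differ. Each coding sequence is 1080 bases long with its stop codon and codes for 359 residues. They share 871 bases (80.6%) and 337 residues (93.9%). Of the 209 differing bases, 172 (82.3%) fall at the third position of a codon, and 167 codons differ while coding for the same residue. The first 90 bases from the start codon, 5′ to 3′, are shown with the bases that differ between the genes in capitals. They hold 16 differing bases and 3 differing residues.
Mab21l1: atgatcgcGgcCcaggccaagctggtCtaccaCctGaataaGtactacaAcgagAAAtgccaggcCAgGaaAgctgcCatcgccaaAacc
Mab21l2: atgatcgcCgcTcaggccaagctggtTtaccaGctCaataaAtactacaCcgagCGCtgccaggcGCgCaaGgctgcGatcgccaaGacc

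The 90 bases with the most differences run from base 436 to base 525 of the coding sequence, counted from the start codon. They hold 27 differing bases, again in capitals, and 2 differing residues.
Mab21l1: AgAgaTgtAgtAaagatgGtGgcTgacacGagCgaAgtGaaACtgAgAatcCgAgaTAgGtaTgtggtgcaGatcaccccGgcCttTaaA
Mab21l2: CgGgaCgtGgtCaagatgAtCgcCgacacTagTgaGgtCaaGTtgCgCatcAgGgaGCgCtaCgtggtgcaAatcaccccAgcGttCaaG

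The longest run of bases that both transcripts share is 26, well under the read length of 150, and the longest in the untranslated parts is 11. No stretch of a read's length is therefore the same in both transcripts.

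**Figure D1:**
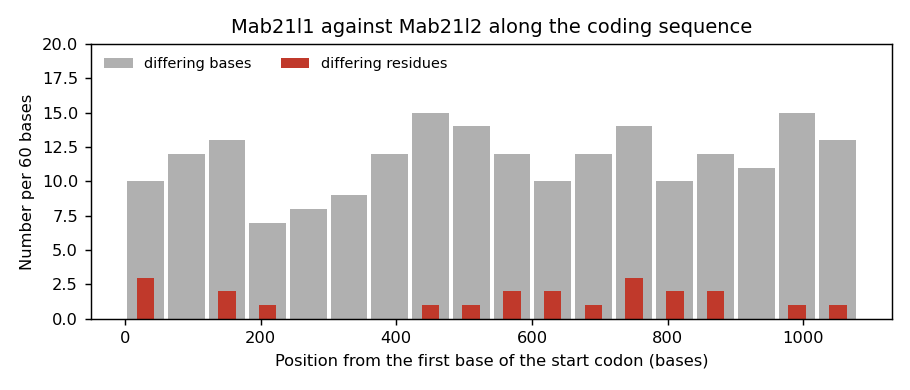
Number of differing bases (grey) and differing residues (red) between Mab21l1 and Mab21l2 in successive stretches of 60 bases of the coding sequence; the x axis gives the position in bases from the start codon. The differing bases are spread along the whole sequence, from 7 to 15 per stretch, and the differing residues number 0 to 3.

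METTL3 methylates adenosines in a short sequence context of which GGACT is a common form. Each transcript holds 1 GGACT, on the sense strand, and in both it starts at base 867 of the coding sequence. It is shown in capitals within 31 bases.
Mab21l1: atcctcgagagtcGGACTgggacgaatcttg
Mab21l2: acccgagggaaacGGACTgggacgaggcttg

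This makes 0.40 GGACT per kb for Mab21l1 and 0.37 for Mab21l2, against a median of 1.05 per kb over the longest protein-coding transcripts of 13588 tested genes, of which 91.8% hold the motif. Of those transcripts, 86.5% have at least the density of Mab21l1 and 87.6% at least that of Mab21l2. Methylation itself was not measured in these libraries, and a match is a description of letters only.

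Levels are given as FPKM, fragments per kilobase of transcript and per sequencing depth, which can be compared between genes. From how low values are spaced, the libraries hold an estimated 27.4 to 52.9 M fragments (median 36.7 M), and 3 fragments are worth 0.026 to 0.05 FPKM for Mab21l1 and 0.023 to 0.045 FPKM for Mab21l2. Duplicates correlated at 0.992 or more over the tested genes. Mettl3 RNA itself was not low in the libraries labelled KO (37.6 ± 0.38 FPKM against 35.7 ± 0.86 in WT at day 6, SD, n = 2), so the RNA level does not check the knockout. The fusion lines held 46.6 to 48.5 FPKM at day 6. Listed genes were tested with limma and Benjamini-Hochberg adjustment over 16276 genes, and a gene was called at an adjusted p under 0.05.

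In stem cells and at day 2, Mab21l1 was close to the counting limit in every line. It lay between 0.01 and 0.08 FPKM at day 0 and between 0.01 and 0.07 FPKM at day 2, which corresponds to fewer than 6 fragments in any library. At day 2 the libraries with Dex (0.01 and 0.02 FPKM) lay below those without Dex (0.07 and 0.04 FPKM). Counts this low do not allow differences between lines to be judged for Mab21l1 on these days.

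Mab21l2 left this range earlier. At day 0 it lay between 0.02 and 0.12 FPKM in all 8 libraries. At day 2 the WT libraries held 0.56 and 0.45 FPKM, KO 2.50 and 2.46, the fusion line without Dex 1.68 and 1.57, and with Dex 1.01 and 1.01. No libraries of different lines overlapped at day 2, KO was highest and WT lowest, and KO exceeded WT 4.91-fold (4.39 to 5.56 over the library pairs). The share of all genes without such overlap is not given here. Lack of overlap, at this day and at days 4 and 6, therefore sets neither gene apart. The fusion lines lay between them.

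At day 4 Mab21l1 was still barely present in WT, at 0.05 FPKM in both libraries, while the KO libraries held 0.67 and 0.53 FPKM. The fusion line held 0.35 and 0.46 FPKM without Dex and 0.30 and 0.25 with Dex. WT was thus lowest and KO highest, and the libraries of the 4 lines did not overlap, although only 0.05 FPKM parted the nearest libraries with and without Dex. These values rest on 4.6 to 50.8 estimated fragments.

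Mab21l2 stood in the same order at day 4 at far higher levels. WT held 2.87 and 2.59 FPKM, KO 37.1 and 37.9, the fusion line without Dex 22.4 and 22.8, and with Dex 12.4 and 12.9. No libraries of different lines overlapped, and the KO mean was 13.7-fold that of WT (12.9 to 14.6 over the library pairs).

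At day 6 the genes parted. Mab21l1 was highest in WT, at 37.7 and 38.1 FPKM, followed by KO at 19.5 and 19.1, the fusion line with Dex at 12.01 and 11.8, and the fusion line without Dex at 9.08 and 8.6. WT was highest and the fusion line without Dex lowest, with no overlap between any lines. Mab21l2 was highest in KO, at 212 and 211 FPKM, followed by the fusion line with Dex at 70.6 and 71.9, the fusion line without Dex at 56.6 and 55.8, and WT at 14.5 and 15.7. Here WT was lowest and KO highest, again with no overlap, and every gap between neighbours in either order was larger than the SDs of the groups, which ran from 0.141 to 0.339 FPKM for Mab21l1 and from 0.516 to 0.884 FPKM for Mab21l2.

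**Figure D2:**
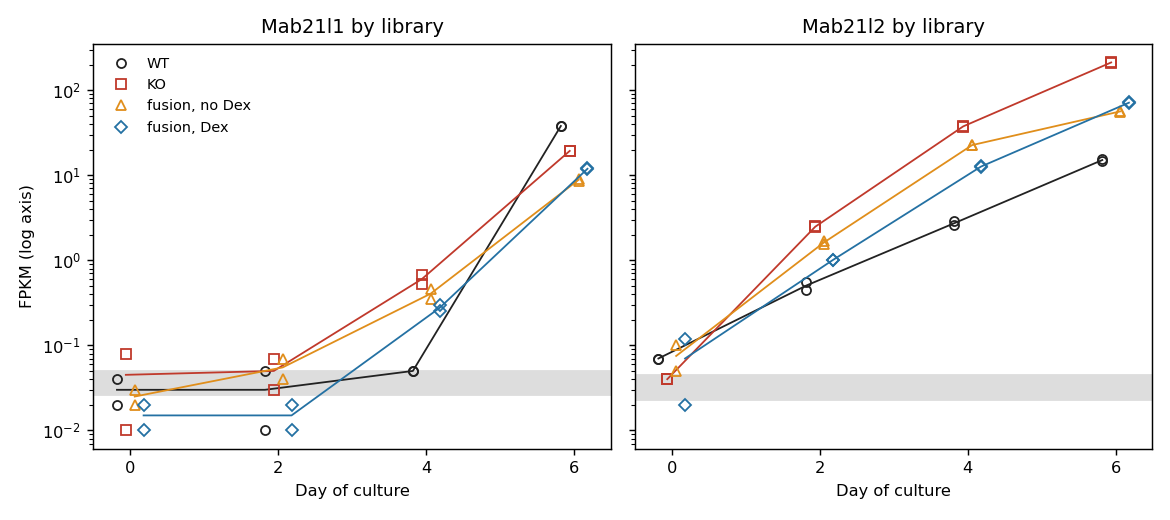
FPKM of Mab21l1 (left) and Mab21l2 (right) on a log axis against the day of culture; each symbol is 1 library, lines join the means of the 2 libraries of a line, symbols of the lines are shifted sideways for legibility, and the grey band marks the value of 3 fragments over the libraries. Mab21l1 stays near the band until day 4 in WT and is highest there at day 6 (37.9 FPKM), while Mab21l2 is highest in KO from day 2 to day 6 (212 FPKM).

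The steps between days show where the curves differ. From day 4 to day 6 the mean of Mab21l1 was 758-fold higher in WT, starting from about 5 fragments, 32.2-fold higher in KO, 21.8-fold higher without Dex and 43.3-fold higher with Dex. For Mab21l2 the same step was 5.53-fold in WT, 5.65-fold in KO and 5.64-fold with Dex, but 2.49-fold without Dex (2.45 to 2.53 over the library pairs). The step from day 2 to day 4 was 5.41-fold for Mab21l2 in WT and 12.5- to 15.1-fold in the other lines. From day 0 to day 2 the Mab21l2 step was 7.21-fold in WT and 62.0-fold in KO (61.5 to 62.5 over the library pairs). It was 21.7-fold without Dex (15.7 to 33.6) and 14.4-fold with Dex (8.42 to 50.5). The day 0 values rest on 1.7 to 10.5 estimated fragments over all lines. Both KO libraries read 0.04 FPKM at day 0 (3.4 and 3.2 estimated fragments), so the narrow KO range leaves out counting error. The last step of Mab21l2 was thus between 5.53- and 5.65-fold in WT, KO and with Dex and smaller without Dex. The first step, the least certain, was larger in KO than in the other lines. These steps were not tested against each other.

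The balance between the genes follows from these levels. Mab21l1 made up 72.2% and 70.9% of the summed FPKM of both genes in the WT libraries at day 6, but 8.4% and 8.3% in KO, 13.8% and 13.4% without Dex, and 14.5% and 14.1% with Dex. At day 4 it made up 1.4% to 2.4% in every library of every line. WT at day 6 was therefore the only group of these days in which Mab21l1 exceeded Mab21l2. Summed over both genes, the day 6 level was lowest in WT (53.0 ± 1.15 FPKM, SD, n = 2) and highest in KO (231 ± 0.80). The fusion line held 65.0 ± 0.97 FPKM when grown without Dex and 83.2 ± 0.74 FPKM with it.

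**Figure D3:**
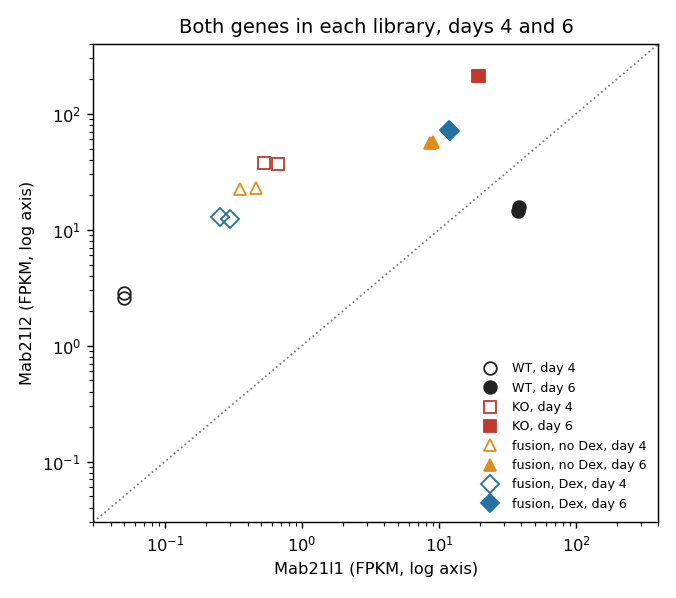
Mab21l2 against Mab21l1 in each library at day 4 (open symbols) and day 6 (filled symbols), both in FPKM on log axes; the dotted line marks equal levels. All libraries lie above the line except the 2 WT libraries of day 6, at 37.7 and 38.1 FPKM of Mab21l1 against 14.5 and 15.7 FPKM of Mab21l2.

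The comparison of KO with WT asks what loss of Mettl3 does to the program. At day 6 Mab21l1 was lower in KO than in WT by 1.96-fold (1.93 to 2.00 over the library pairs), a difference of -0.94 ± 0.053 (SE) on the log2(FPKM + 1) scale. At day 4 it was higher in KO by 12-fold (10.6 to 13.4), or 0.61 ± 0.053 on that scale, which understates changes of low values. Both WT libraries read 0.05 FPKM at day 4 (4.8 and 4.6 estimated fragments), so the range of this ratio leaves out counting error. Mab21l2 was higher in KO on both days, by 13.7-fold at day 4 (3.37 ± 0.050) and 14-fold at day 6 (3.73 ± 0.050, 13.5 to 14.6 over the library pairs). For the background, 60.5% of the 16276 genes tested were called at day 4 (36.5% higher and 24.0% lower in KO) and 65.1% at day 6 (30.9% higher and 34.2% lower), so a call in this comparison sets no gene apart. Already in stem cells, at day 0, 48.2% were called. At day 4, 60.3% of the calls were higher in KO, and 49.6% after rescaling the libraries by median-of-ratios factors. At day 6 these shares were 47.5% and 50.6%.

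The genes known from the places where Mab21l1 and Mab21l2 are made moved in opposite directions in this comparison. Of the 8 genes of the eye field, the forebrain region that becomes the eyes, 6 were lower and 1 higher in KO at day 6 (median difference -4.22 on the log2(FPKM + 1) scale against -0.031 for all genes tested), and 5 were lower and 1 higher at day 4. Rax, the transcription factor that starts eye formation, fell from 118 ± 4.71 FPKM in WT to 0.30 ± 0.028 in KO at day 6, and Six6, another eye field homeobox factor, from 69.7 ± 0.94 to 0.02 in both libraries. Of 12 optic vesicle and optic cup genes, 10 were lower and 1 higher at day 6. The tissue label of a retinal organoid is therefore not borne out by Rax and Six6 in KO.

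Of 14 genes of the midbrain and caudal forebrain, 12 rose in KO at day 6 and 2 were not called (median difference 3.13), and all 14 rose at day 4. Irx1, an Iroquois homeobox factor, rose from 2.03 ± 0.311 to 149 ± 0.375 FPKM at day 6, and Dmbx1, a midbrain homeobox factor, from 0.29 ± 0.014 to 50.9 ± 0.587. The summed FPKM of this list at day 6 was 37.3 to 39.1 in WT, 554.9 to 563.7 in KO, and in the fusion line 226.1 to 231.9 without Dex and 87.1 to 88.1 with it. That of the eye field list was 782.0 to 817.5 in WT, 323.3 to 324.5 in KO, and in the fusion line 366.1 to 366.3 without Dex and 578.1 to 579.5 with it. Most of the eye field sum in KO came from Otx2 (203 FPKM, called higher than the 105 FPKM of WT) and Pax6 (112 FPKM, 110 FPKM in WT, adjusted p = 0.926), while Rax, Six3, Six6 and Tbx3 were below 1 FPKM there. Mab21l2 had the WT libraries lowest and KO highest, as the midbrain list did, but in the fusion line it was higher with Dex than without, where the midbrain sum was lower. Whether cells of these regions account for the levels of Mab21l1 or Mab21l2 was not tested, and in bulk RNA more cells of a type and more RNA per cell cannot be told apart.

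Lists of other cell types that the organoids could hold were read as well. Beside their counts stands the share of all genes tested that was called at day 6, 65.1% (30.9% higher and 34.2% lower in KO). Of 9 tested lens and surface ectoderm genes (of 10), 2 rose and 7 fell in KO at day 6. The median difference was -0.98. Those that fell included Maf, a lens transcription factor, from 39.96 to 5.76 FPKM, Cryab, a small heat shock protein abundant in lens, from 8.09 to 1.49 FPKM, and the epithelial keratin gene Krt18, from 24.8 to 8.30 FPKM. The risers were Foxe3, another lens transcription factor, from 0.36 to 15.4 FPKM, and Tfap2a, from 0.69 to 6.80 FPKM. Cryaa, a lens crystallin, was at 0.045 FPKM or less in the mean of every line at day 6. Of 8 neural crest genes, 7 rose and 1 fell, among them Sox10, from 0.55 to 14.2 FPKM. The sum of the crest list ran from 17.2 to 18 FPKM in WT and 75.8 to 76.1 in KO. Of 5 tested genes of mesothelium and ventral mesenchyme (of 8), where Mab21l2 is also made in the embryo, 1 rose and 3 fell, and the list summed to at most 18.8 FPKM in WT and 4.8 in KO. Its mesothelial markers Wt1 and Upk3b were below 1 FPKM in every line at days 4 and 6. Of 8 pluripotency genes, 1 rose and 7 fell, including Pou5f1, from 37.9 to 11.7 FPKM. Of 6 neural progenitor genes, 4 rose and 1 fell, and leaving out any 1 of the 4 libraries left 3 calls, while rescaling ended the call of Sox3, the gene that fell. The lists share genes, so their counts are not separate. The pluripotency gene that rose did so by 0.10 (adjusted p = 0.0385). That gene is also the riser of the optic vesicle and optic cup list and a riser of the neural progenitor list. Pax6 is in both the eye field and the neural progenitor list. The part of these cell types in the levels of Mab21l1 and Mab21l2 was not tested.

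BMP pathway genes were listed because of the link between MAB21L2 and SMAD1. Of 22 tested (of 23), 14 rose and 3 fell in KO at day 6 (median difference 0.83), and 13 rose and 3 fell at day 4. Over all genes tested, 65.1% were called at day 6 (30.9% higher and 34.2% lower). At day 4 the share was 60.5% (36.5% higher and 24.0% lower). Among ligands, Bmp2 rose from 0.42 to 2.65 FPKM and Bmp4 fell from 14.5 ± 1.73 to 4.22 ± 1.05. The receptor gene Bmpr1b fell from 4.51 to 0.35 FPKM, and Smad1, which carries the signal to the nucleus, rose from 13.1 ± 0.12 to 27.4 ± 0.509. Of the target genes, Id1 rose from 61.5 ± 0.629 to 258 ± 5.43 FPKM and Msx1 from 1.84 ± 0.035 to 53.5 ± 1.41. The antagonist Nog rose from 3.17 to 13.1 FPKM, while Fst fell from 23.2 to 8.92 FPKM.

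The relatives and neighbours of both genes differed less between KO and WT at day 6 than Mab21l2, though the largest differences among relatives were about the size of that of Mab21l1. Of 8 tested members of the wider Mab21 fold family (of 10), 5 rose and 1 fell in KO at day 6, with a median difference of 0.38. Over all genes tested, 65.1% were called. Itprip rose from 6.22 ± 0.127 to 13.2 ± 0.658 FPKM (a difference of 0.98). Mief2, a mitochondrial fission factor, rose from 10.3 ± 0.672 to 19.7 ± 0.629 FPKM (0.88). Mab21l3 had 0.58 and 0.68 FPKM with an adjusted p of 0.37, and the DNA sensor Cgas was at 0.18 and 0.19 FPKM with an adjusted p of 0.917. Of the 4 host and flanking genes, Lrba and Dclk2 rose and Dclk1 fell, each by at most 0.33 on the log2(FPKM + 1) scale. Lrba, the host of Mab21l2, had 9.54 ± 0.071 FPKM in WT and 11.5 ± 0.156 in KO, and Nbea, the host of Mab21l1, had 8.09 ± 0.297 and 7.08 ± 0.233 (adjusted p = 0.102). Over the 763 tested genes of chromosome 3 the median difference at day 6 was -0.10, against -0.028 for the other chromosomes.

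**Figure D4:**
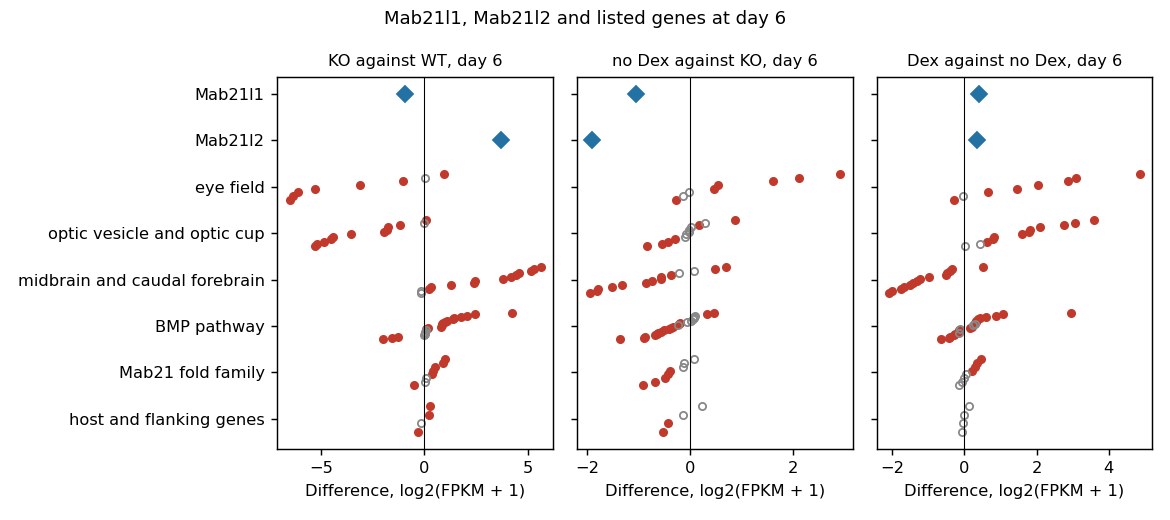
Difference on the log2(FPKM + 1) scale at day 6 for KO against WT (left), the fusion line without Dex against KO (middle) and with Dex against without Dex (right); blue diamonds are Mab21l1 and Mab21l2, whose standard errors are smaller than the symbols and which carry no test, and circles are listed genes that were tested, filled red where called. Mab21l2 lies at 3.73 in the left panel and Mab21l1 at -0.94, while both lie left of 0 in the middle panel and right of 0 in the right panel; the panels have different x scales and share libraries.

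The fusion line without Dex, made from Mettl3 KO cells, was compared with KO. An effect of cytosolic METTL3 cannot be told apart here from one of deriving the line or of its clones. This comparison uses the KO libraries of the previous one, so its direction is not independent of it. Both genes were lower in the fusion line at day 6. Mab21l2 was lower by 3.77-fold (3.73 to 3.8 over the library pairs, -1.90 ± 0.050 on the log2(FPKM + 1) scale) and Mab21l1 by 2.18-fold (2.10 to 2.27, -1.05 ± 0.053). At day 4 Mab21l2 was lower by 1.66-fold (-0.71 ± 0.050). Mab21l1 was lower by 1.48-fold there (-0.19 ± 0.053), but without replicate 1 of every group the difference was -0.068 and without replicate 2 it was -0.31. At day 2 Mab21l2 was lower by 1.53-fold (-0.41 ± 0.050). Mab21l1 at day 6 lay further below WT than it did in KO, whereas Mab21l2 lay nearer to WT than in KO.

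Of all genes tested, 26.7% were called at day 4 (9.66% higher and 17.0% lower without Dex than in KO) and 49.0% at day 6 (21.1% higher and 27.9% lower). Already in stem cells, at day 0, the share was 49.1%. At day 4, 36.3% of the calls were higher, and 51.9% after rescaling by median-of-ratios factors. Of the 8 eye field genes, 3 rose at day 4, and 5 rose and 1 fell at day 6. Six3, an eye field homeobox factor, rose from 0.64 ± 0.078 FPKM in KO to 11.4 ± 1.08 at day 6, and Rax from 0.30 ± 0.028 to 0.91 ± 0.17. Of the 14 midbrain and caudal forebrain genes, 9 fell at day 4, and 10 fell and 2 rose at day 6. Irx3, another Iroquois factor, fell from 96.8 ± 2.09 to 24.3 ± 0.099 FPKM at day 6, and the risers were Lmx1a and Barhl2. Of 22 BMP pathway genes, 13 fell and 2 rose at day 6. The Mab21 fold family had 5 of 8 lower at day 6, with 3 not called, and of the host and flanking genes Lrba and Dclk2 fell. Lrba fell from 11.5 to 7.70 FPKM.

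Dex against no Dex compares the fusion protein placed in the nucleus with that in the cytosol, within 1 line. It shares the libraries without Dex with the previous comparison, and Dex has no arm here in cells without the fusion, so an effect of Dex on its own cannot be told apart. At day 6 both genes were higher with Dex, Mab21l2 by 1.27-fold (1.25 to 1.29 over the library pairs, 0.34 ± 0.050 on the log2(FPKM + 1) scale) and Mab21l1 by 1.35-fold (1.3 to 1.4, 0.39 ± 0.053). At day 4 both were lower with Dex, Mab21l2 by 1.79-fold (1.74 to 1.85, -0.79 ± 0.050) and Mab21l1 by 1.47-fold (1.17 to 1.84, -0.14 ± 0.053). Without replicate 1 of every group the last difference was -0.22, and without replicate 2 it was -0.054. At day 2 Mab21l2 was lower with Dex by 1.61-fold (1.55 to 1.66, -0.39 ± 0.050). With Dex, Mab21l2 lay nearer to its WT level than without Dex on days 2 and 4 and further from it at day 6, and Mab21l1 lay nearer to its WT level on days 4 and 6.

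The listed genes with Dex can be set beside these small differences. Of all genes tested, 40.2% were called at day 4 (18.3% higher and 21.9% lower with Dex) and 42.7% at day 6 (23.8% higher and 19.0% lower). At day 0, for which the treatment text lists no Dex, 43.4% were called between the same series. The shares at the later days can therefore not be read as a response to Dex. Of the 8 eye field genes, 6 rose at day 4, and 6 rose and 1 fell at day 6. Rax rose from 0.91 ± 0.17 to 54.7 ± 1.15 FPKM at day 6 and Lhx2, a LIM homeobox factor of the eye field, from 17.3 ± 0.976 to 155 ± 0.933. Of 12 optic vesicle and optic cup genes, 10 rose at day 6, among them Hmx1, from 0.56 to 17.9 FPKM. Of the 14 midbrain and caudal forebrain genes, 9 fell and 1 rose at day 4, and 13 fell and 1 rose at day 6, with Pax3, a dorsal neural tube factor, falling from 19.5 ± 0.17 to 3.8 ± 0.021 FPKM. Of 22 BMP pathway genes, 11 rose and 7 fell at day 6. Bmp4 rose from 3.62 ± 1.94 to 34.2 ± 10.1 FPKM and Msx1 fell from 20.4 to 12.7. Of the Mab21 fold family, 4 of 8 rose at day 6 and 3 did after median-of-ratios rescaling, which lost Mab21l3. 2 calls were left without day 6 Dex replicate 2 or without day 6 no-Dex replicate 1. Lrba was at 7.70 ± 0.438 FPKM without Dex and 8.53 ± 0.453 with Dex (adjusted p = 0.0549), and Nbea at 6.39 and 6.29 FPKM (adjusted p = 0.896).

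Over the 16 group means Mab21l1 and Mab21l2 had a Pearson r of 0.75 and a Spearman rho of 0.87 on the log2(FPKM + 1) scale. Without the KO and WT groups of day 6, r was 0.78 over 14 groups. After the mean of each day was subtracted, r was -0.12. This value pools days on which the genes were alike and unlike. At day 4 the order of the lines was the same for both genes. At day 6 KO, Dex and no Dex kept 1 order for both, while WT was highest for Mab21l1 and lowest for Mab21l2. The groups share days and lines and are not independent, and these values are a description.

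The genes most like each member were sought among 10545 genes that reached a mean of 5 FPKM in at least 1 group, by Pearson r over the same 16 means. For Mab21l1 they were Edaradd (0.98), Adgrl3 (0.98), Pcsk5 (0.98), Meis1 (0.97) and Lmo3 (0.97). Adgrl3, an adhesion receptor of the latrophilin group, had 14.4 FPKM in WT at day 6 and 7.94 in KO, and Lmo3, a LIM-only protein gene, 31.6 and 8.49. Adgrl3 kept the day 6 order of Mab21l1, with 6.06 FPKM without Dex and 6.41 with Dex. Lmo3 did not, as the fusion line lay above KO (12.07 without Dex and 20.3 with Dex). Meis1 was higher in KO (27.85) than in WT (25.64), and Edaradd and Pcsk5 were lower with Dex than without. After the day mean was subtracted, Pcsk5 (0.93), Kcnj12 (0.92), Fzd8 (0.92), Ndnf (0.90) and Plekha1 (0.89) were nearest. Fzd8, a Wnt receptor, had 23.7 FPKM in WT at day 6, 5.18 in KO, 1.58 without Dex and 4.20 with Dex, which is the order of Mab21l1. Kcnj12 and Plekha1 kept this order, but Pcsk5 and Ndnf were lower with Dex than without.

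For Mab21l2 the nearest genes were Dchs1 (0.99), Pxylp1 (0.99), P3h3 (0.99), Prex1 (0.99) and Fut8 (0.99). Dchs1, a large cadherin, had 2.26 FPKM in WT at day 6, 5.93 in KO, 3.9 without Dex and 5.40 with Dex, which is the order of Mab21l2 over a far narrower range. P3h3 kept this order, but Pxylp1, Prex1 and Fut8 were lower with Dex than without. After the day mean was subtracted, Olfml2b (0.99), Cxxc4 (0.97), Cmtr2 (0.97), Ice1 (0.96) and Pskh1 (0.96) were nearest. Cxxc4, which encodes a zinc finger protein that can dampen Wnt signalling, had 7.58 FPKM in WT at day 6, 25.1 in KO, 14.6 without Dex and 16.1 with Dex. Pearson r over the 32 libraries named the same 5 genes for each member as the first list, and Spearman rho named 0 of the 5.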

How the data were processed

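RNA from 32 libraries (4 lines, 4 days, 2 libraries each) was measured by the authors as FPKM per gene, deposited as 1 table of 55492 gene rows. Per the submitters' processing notes the tools were STAR and Cuffdiff and the build mm10; versions, annotation and strand setting are not given in the sources used here. Groups came from the labels, and 0 value columns were left unmatched. The FPKM were used as deposited. Genes at 1 FPKM or more in at least 2 libraries (16276) entered limma 3.58.1 (R 4.3.3) on log2(FPKM + 1), with 1 mean per group over all 32 libraries, a trended prior and Benjamini-Hochberg adjustment, 16 residual degrees of freedom, and calls at an adjusted p under 0.05 (two-sided). The script was tested on simulated data. Adding 1 damps differences of low genes.

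The number of fragments behind a value was worked out from the spacing of low FPKM: 89.1% to 92.8% of 831 to 1224 low values per library lay within 0.2 of a whole fragment, with gene lengths shortened by 260 to 300 bases. The FPKM floor of 3 fragments covers counting error only. Positions and transcripts came from GENCODE M21 on GRCm38, the assembly also called mm10, which matched 99.5% of the rows. Protein identity was computed from the coding sequences.

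The members and the gene lists were chosen with earlier results of these data known. Named genes are the members, Mettl3, genes of the lists, and for each member the 5 genes of highest likeness by each of 2 measures, leaving out predicted genes, clones and pseudogenes. Of the listed genes, those described were picked as examples after their values were seen. Alternatives were the pseudocount, median-of-ratios rescaling, filters, a fold minimum, the compared groups alone, a replicate block and leaving out libraries. Results for 1 listed gene are not reported here by name.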

Additional observations from a re-analysis of the deposited data

Results flagged for a closer look

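Differences between lines changed direction between days in 4 cases, in every library of the groups concerned, and the change itself was not tested, because both genes were chosen from these values. Mab21l1 was higher in KO than in WT at day 4 and lower at day 6, and its KO-against-WT difference on the log2(FPKM + 1) scale shifted by -1.54 from the earlier to the later day. With Dex, Mab21l1 was lower than without Dex at day 4 and higher at day 6, a shift of 0.53. Mab21l2 was lower with Dex at days 2 and 4 and higher at day 6, a shift of 0.72 from day 2 and of 1.13 from day 4.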

How the results depend on the processing

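No difference of Mab21l1 at days 4 and 6, or of Mab21l2 at days 2, 4 and 6, changed sign under the alternatives run. Differences on the earlier days were not put through them. The majority direction of all calls turned with median-of-ratios rescaling at day 4, from 60.3% to 49.6% higher for KO against WT and from 36.3% to 51.9% higher for no Dex against KO. It also turned at day 6 for KO against WT, from 47.5% to 50.6% higher. At day 0 it turned for no Dex against KO (39.3% to 57.3%) and Dex against no Dex (62.9% to 48.1%). For Dex against no Dex it turned at day 2 as well (28.7% to 50.1%). With a pseudocount of 0.1 the Mab21l1 differences were 2.21 (KO against WT, day 4), -0.97 (day 6), -0.47 and -1.12 (no Dex against KO, days 4 and 6) and -0.42 (Dex against no Dex, day 4), and those of Mab21l2 were 3.73 and 3.8 (KO against WT, days 4 and 6), -0.73 and -1.91 (no Dex against KO) and -0.83 (Dex against no Dex, day 4); a smaller pseudocount damps low values less by construction. After median-of-ratios rescaling, Mab21l1 was at -0.90 for KO against WT at day 6, and Mab21l2 at 3.26 for KO against WT at day 4 and -0.66 and -1.88 for no Dex against KO at days 4 and 6; the cause was not tested.

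Leaving out libraries gave for Mab21l1 -0.96 to -0.92 (KO against WT, day 6), -0.31 to -0.068 (no Dex against KO, day 4) and -0.22 to -0.054 (Dex against no Dex, day 4). For Mab21l2 it gave 3.30 to 3.44 and 3.67 to 3.78 (KO against WT, days 4 and 6) and 0.31 to 0.36 (Dex against no Dex, day 6). Counts of calls could not be fitted without 1 replicate of every group, since no residual degrees of freedom remained.

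Requiring a log2 difference of 1 or more left, at days 4 and 6, 902 and 1630 genes of 9855 and 10591 (KO against WT), 38 and 331 of 4339 and 7983 (no Dex against KO) and 149 and 247 of 6551 and 6956 (Dex against no Dex). It left 3 eye field genes for no Dex against KO at day 6, and of the midbrain and caudal forebrain genes 8 for KO against WT at day 4, 1 and 5 for no Dex against KO, and 4 and 8 for Dex against no Dex. With a mean of at least 5 FPKM over all libraries, fewer genes were tested (9412), and 7 midbrain and caudal forebrain genes were called for KO against WT at days 4 and 6, for no Dex against KO at day 6 and for Dex against no Dex at day 6. The compared groups alone, with fewer libraries, gave 2284 calls for no Dex against KO at day 4.

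Replicate numbers did not pair the libraries: deviations of same-numbered libraries correlated at -0.088 to 0.125 (median 0.003) over 120 pairs of groups. With a replicate block, 9842 and 10558 genes were called for KO against WT at days 4 and 6, 4302 and 7966 for no Dex against KO, and 6507 and 6960 for Dex against no Dex. The depth limits Mab21l1 before day 4 and in WT at day 4.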
